A study of Mus musculus with 21 samples.

Results

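The 32 genes described here act in the piRNA pathway or in the writing, copying and removal of DNA methylation, and they were taken from a named list by their symbol in a deposited table of 32643 mouse genes. All 32 symbols matched 1 gene each, and all 32 passed the filter on low counts that left 20254 genes for testing. They comprise 3 PIWI genes, 8 genes of Tudor domain proteins, 9 other piRNA factors, 3 regulators, 6 genes of DNA methyltransferases and other methylation factors and 3 genes of TET dioxygenases. The values come from RNA sequencing of whole testis of 21 mice, all at postnatal day 10. Of these, 12 were wild type (WT) and 9 were knockouts (KO) of the nuclear bile acid receptor FXRα, whose gene is Nr1h4, on a background of 129sv and C57Bl6 in equal parts. Each genotype was split into vehicle, bisphenol A (BPA, a chemical of plastics that acts weakly on estrogen receptors) and stigmasterol (a sterol of plants), with 4 animals per WT group and 3 per KO group. Each library is 1 animal, and the doses, the route, the litters and the deleted part of Nr1h4 were not given in the sources used here.

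PIWI-interacting RNAs (piRNAs) are small RNAs of the germ line that guide PIWI proteins to transposon transcripts. In the fetal testis the PIWI proteins MILI (Piwil2) and MIWI2 (Piwil4) direct de novo DNA methylation of transposon promoters, with DNMT3L as a cofactor of the methyltransferases. MIWI (Piwil1) belongs to later germ cells and loads the pachytene piRNAs, whose precursors and machinery are switched on by the transcription factor A-MYB (Mybl1). DNMT1 with UHRF1 copies methylation onto newly made DNA, and the TET enzymes oxidise methylcytosine. At this age the germ cells of the mouse testis are spermatogonia and cells beginning meiosis, with pachytene spermatocytes still rare.

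The libraries held 35459523 to 61498855 counted reads. Levels are given as CPM, reads scaled to a fixed library total. Nr1h4 ranged over 0.241 to 0.868 CPM (WT) and 0.172 to 0.492 CPM (KO), which overlap at a low level, so this gene is a weak check of the labels. Cdh16, an epithelial cadherin used as a marker of epididymal RNA, was at 10 CPM or more in 9 libraries, 3 WT (T81, T60 and T75) and 6 KO (T1, T110, T83, T117, T10 and T93). Of the marker lists, 9 of 16 Sertoli genes were lower in KO, 8 of 11 epididymal genes and 4 of 5 fat cell genes were higher, and none of 21 meiotic entry genes was called, where 13.9% of all genes were. Of the other germ cell lists, 2 of 16 undifferentiated spermatogonial genes were higher and 2 lower, 1 of 7 differentiating spermatogonial genes was higher, and 1 of 8 tested genes of pachytene and later cells was higher. Summed over the list, Sertoli genes ranged over 6630 to 10700 CPM (WT) and 6070 to 7270 CPM (KO), and epididymal genes over 153 to 292 CPM (WT) and 223 to 829 CPM (KO). These shifts move with genotype, and their part in the results below was not tested. In RNA of whole testis, fewer cells of a type and less RNA per cell cannot be told apart.

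The promoters are shown first, and their part in the levels of these genes was not tested. RefSeq promoters (GRCm38.p6) were found for 27 of the 32 genes, with 42 starts, and Morc1, Piwil2, Tdrd6, Rnf17 and Mybl1 had no entry. The E-box CACGTG, a palindrome read by basic helix-loop-helix factors, lay within 250 bases before a start of 10 genes: Piwil1, Tdrd1, Tdrd9, Ddx4, Mov10l1, Mael, Pld6, Fkbp6, Dnmt3a and Dnmt3l. The stretches below surround this motif in 6 of them, as examples, namely Piwil1, 4 of the genes that rose with the meiotic entry score and Tdrd1, which did not follow it. They lie outside annotated exons, are written 5′ to 3′ on the strand of the gene, and carry CACGTG in capitals.

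Piwil1 (chr5:128736055-128736134, + strand): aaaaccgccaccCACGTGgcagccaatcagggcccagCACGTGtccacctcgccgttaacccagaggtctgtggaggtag
Mov10l1 (chr15:88982744-88982790, + strand): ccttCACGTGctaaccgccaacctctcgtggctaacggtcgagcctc
Mael (chr1:166238925-166238994, − strand): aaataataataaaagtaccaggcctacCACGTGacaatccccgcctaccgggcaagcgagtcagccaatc
Tdrd9 (chr12:111971427-111971506, + strand): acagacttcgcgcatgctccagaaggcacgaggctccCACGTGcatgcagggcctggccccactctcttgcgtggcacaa
Fkbp6 (chr5:135350045-135350118, − strand): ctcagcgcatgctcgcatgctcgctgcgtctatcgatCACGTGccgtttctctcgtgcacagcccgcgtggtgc
Tdrd1 (chr19:56826161-56826208, + strand): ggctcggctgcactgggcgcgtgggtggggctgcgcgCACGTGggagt

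Piwil1 carries the motif at 2 places in this stretch. CACGTG was present in 12 of the 42 promoters of these genes (28.6%) and in 1978 of 32851 promoters of all genes (6.02%). The promoters of these genes also held more CG dinucleotides, with a median of 15.5 against 6. Among promoters with 10 or more CG, the motif was in 10 of 30 of these genes' promoters (33.3%) and in 1163 of 12417 of all promoters (9.37%). The other 9 motifs searched, on both strands, were chosen with the promoters in view. The MYB core AACNG was in 69.0% of these genes' promoters and 74.2% of all, its form AACGG in 35.7% and 14.5%, and TAACGG, which contains AACGG, in 4.76% (Piwil1 and Mov10l1) and 2.18%. The variant CAACTGC was in 7.14% and 3.07%, the E2F-type GCGGGAA in 7.14% and 3.82%, its longer form GGCGGGAA in 4.76% and 1.86%, and CCAAT in 33.3% and 33.8%. TCACGTGA, the E-box with 1 more base on each side, and TTTCGCGCC were in none of these genes' promoters and in 0.785% and 0.1% of all. A match is a description of the letters and not evidence of binding, and the shares were not tested.

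The genes differed widely in level. Levels between genes are given as CPM per kilobase of annotated exons, because the gene length that the authors divided by was under 0.5 of the longest annotated transcript for 9 of the 32 genes. The order depends on the length used. Dnmt3a, with 16.6 kb of annotated exons and a longest transcript of 9.69 kb, shared rank 13 here. By the authors' signal per kb it ranked 1 and Fkbp6 ranked 2. By the measure used here Fkbp6, which encodes an FK506-binding protein of piRNA biogenesis, had the highest median level. Its range was 82.1 to 140.0 CPM per kb. Fkbp6 was followed by Mael (Maelstrom, 93.5), the germ cell RNA helicase gene Ddx4 (73.7), Tex19.1 (51.7), Piwil2 (42.9) and Dnmt1 (41.2), all medians in CPM per kb over the 21 libraries. Mael ranged over 56.8 to 108.0, so neighbours in this order overlapped between animals. The lowest were Piwil4 (2.56), Tet2 (2.31), Piwil1 (1.45), Tet1 (1.3), the methyltransferase cofactor gene Dnmt3l (0.532) and Tdrd6 (0.109). MILI's gene was thus the PIWI gene with the highest level. Tdrd6, which encodes a Tudor protein of the chromatoid body of spermatids, had only 11 to 51 reads per library and Dnmt3l only 30 to 144, so both are imprecise. The kit keeps no strand, so reads of Dnmt3a, Dnmt3b and Dnmt3l cannot be told apart from those of the overlapping genes Dnmt3aos, Dnmt3bos and Aire where these share sequence. The same limit holds for Piwil2, Piwil4, Tdrd9, Tdrd12, Rnf17, Mov10l1, Henmt1, Dnmt1 and Tet3, which also overlap other annotated genes.

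Piwil1 was the only one of the 32 genes called between genotypes. It (ENSMUSG00000029423) lies on the + strand at chr5:128736246-128755474 (mm10) and encodes MIWI, the PIWI protein of pachytene spermatocytes and spermatids. In WT, vehicle animals had 6.3 (T66), 6.74 (T71), 7.6 (T79) and 5.11 CPM (T81). With BPA, WT levels were 7.17 (T60), 7.25 (T75), 7.47 (T61) and 7.82 CPM (T74). With stigmasterol they were 7.42 (T78), 8.92 (T98), 6.44 (T118) and 6.36 CPM (T119). All but T81 of the WT animals were above every KO animal. In KO, vehicle levels were 4.66 (T1), 5.61 (T90) and 5.02 CPM (T110). BPA levels were 4.98 (T25), 4.25 (T83) and 3.69 CPM (T117). Stigmasterol levels were 4.92 (T10), 5.14 (T15) and 4.41 CPM (T93). The genotypes overlapped only through T81, which lay below 2 KO animals. Averaged over treatments, Piwil1 fell by 0.57 on the log2 scale in KO (SE 0.0853, edgeR quasi-likelihood test, adjusted p 0.000192), from 7.05 ± 0.955 CPM (SD, n = 12) in WT to 4.74 ± 0.564 CPM (SD, n = 9) in KO. Of all genes tested, 13.9% were called in this comparison and 7.07% were called lower, so a call of 1 in 32 is below the background share. Genotype accounted for 70.4% of the variance of Piwil1 between libraries and the 6 groups for 79.1%.

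**Figure D1:**
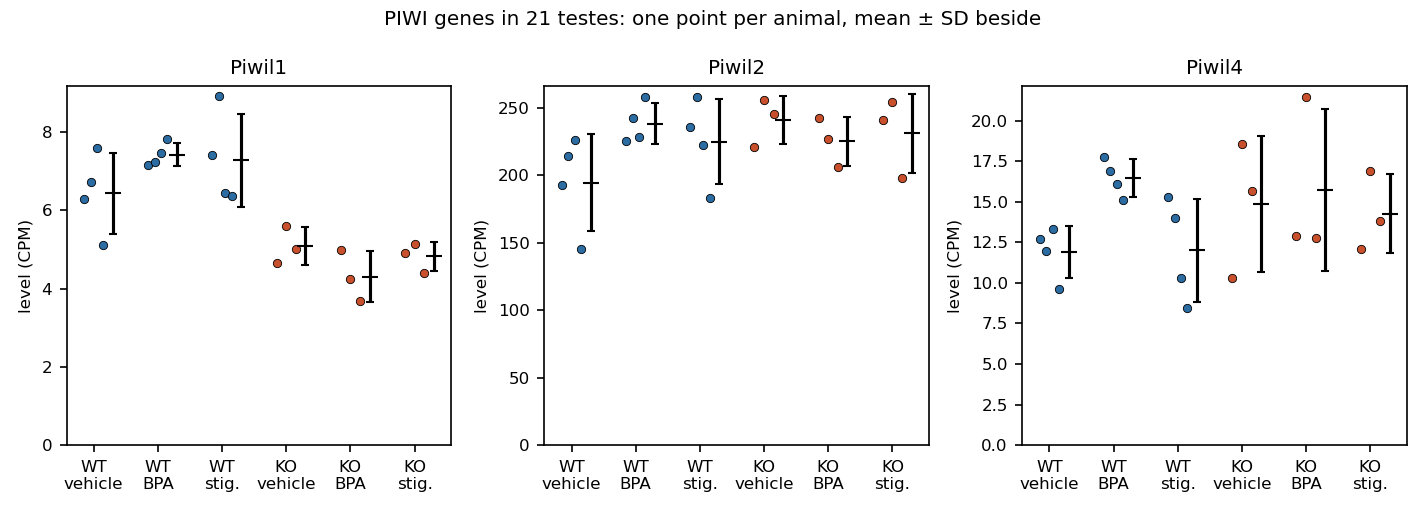
Level in CPM (y axis, from 0) of Piwil1, Piwil2 and Piwil4 in the 6 groups (x axis; WT blue, KO orange, stig. is stigmasterol), with a point per animal and the group mean ± SD beside the points. Piwil1 lies between 3.69 and 5.61 CPM in KO animals and between 5.11 and 8.92 CPM in WT animals, while the genotypes overlap for Piwil2 and Piwil4.

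The Piwil1 difference was called with each of the 21 animals left out in turn, at −0.61 to −0.54 (edgeR adjusted p 5.66e-05 to 0.000653). With the meiotic entry score defined below as a covariate it was −0.62 (adjusted p 4.35e-05). Without the 9 libraries with Cdh16 it was −0.48 and no longer passed (adjusted p 0.161), with 1 KO animal left per treatment. In those remaining libraries the KO animals T90, T25 and T15 had 5.61, 4.98 and 5.14 CPM and the 9 WT animals had 6.3 CPM or more. Within the 9 libraries with Cdh16, the 6 KO animals had 3.69 to 5.02 CPM and the 3 WT animals 5.11, 7.17 and 7.25 CPM. In vehicle alone the difference was −0.34 (SE 0.147, edgeR adjusted p 0.202), so it did not pass there, and 2.92% of all genes did. Without T81 it was −0.45 (adjusted p 0.141). Piwil1 had 150 to 412 reads per library, so counting error adds to the spread between animals.

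Among the genes near Piwil1, 3 were called between genotypes, all lower in KO. Within 1.5 Mb of either end, a window chosen after the values were seen, 37 genes were tested. The 3 calls are 8.11%, where 9.74% on chromosome 5 and 13.9% of all genes were called in either direction. Called lower were 60 of 1222 genes on chromosome 5 and 7.07% of all genes, and the shares were not compared by a test. Rimbp2, 4.9 kb from Piwil1, encodes a synaptic RIM-binding protein and ranged over 1.86 to 15.5 CPM (WT) and 0.777 to 3.05 CPM (KO; log2 fold change −2.1, SE 0.387, edgeR adjusted p 0.00152). The pseudogene Gm15920, at a distance of 1432.9 kb, was read in every WT library at 0.763 to 3.05 CPM, while KO libraries held 0 to 0.0447 CPM (edgeR adjusted p 2.15e-10). Glt1d1, on the other side of Piwil1, ranged over 1.03 to 3.03 CPM (WT) and 0.492 to 1.38 CPM (KO; log2 fold change −1.3, SE 0.172, edgeR adjusted p 5.17e-05). All 3 lie on the chromosome of Piwil1, and their part in its result was not tested.

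The other PIWI genes did not pass the test. Piwil2 was at 219 ± 32.4 CPM (SD, n = 12) in WT and 232 ± 20.7 CPM (SD, n = 9) in KO, a log2 difference of 0.09 (95% interval −0.07 to 0.25). Piwil4 was at 13.5 ± 2.96 CPM in WT and 15 ± 3.53 CPM in KO, a log2 difference of 0.17 (95% interval −0.1 to 0.44).

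Several Tudor domain proteins bind methylated arginines of PIWI proteins. Among the 8 Tudor domain genes, none was called and 7 had a positive log2 difference, with a median of 0.08. Tdrd9, a partner of MIWI2, had the highest value at 0.2 (95% interval −0.03 to 0.42). Tdrd1, a scaffold of MILI, had 0.02 (95% interval −0.13 to 0.17). Of the 9 other piRNA factors none was called, 8 had positive values and the median was 0.11. They include Mov10l1, the RNA helicase that takes up piRNA precursors (0.2, 95% interval −0.04 to 0.45), and Henmt1, the methyltransferase of piRNA 3′ ends (−0.04, 95% interval −0.21 to 0.13). Pld6, the mitochondrial nuclease that cuts piRNA precursors, was at 20.1 ± 1.98 CPM in WT and 22.7 ± 2.83 CPM in KO, a log2 difference of 0.17 (SE 0.0698, edgeR adjusted p 0.107). The remaining piRNA genes lay between −0.1 (Tdrd6) and 0.18 (Rnf17 and Ddx4), and the regulators Mybl1, Prmt5 and Tex19.1 had −0.1, −0.06 and 0.07. Averaged over treatments, all 32 genes had a median log2 difference of 0.04 with 21 above 0, beside a median of 0.01 with 53.3% above 0 for all genes tested. Without WT vehicle animal T81, 16 of the 32 were above 0 and their median was 0. None of the 32 genes separated the genotypes without overlap, against 1.05% of all genes.

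**Figure D2:**
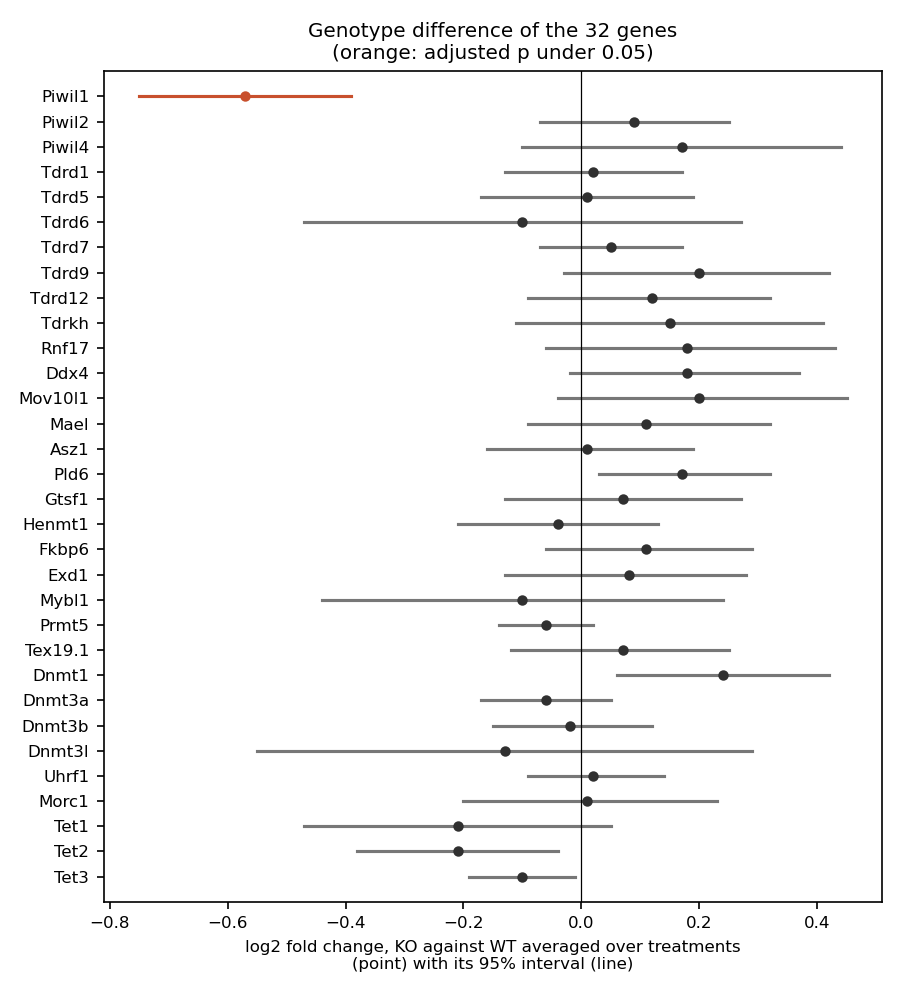
Log2 fold change of each of the 32 genes in KO against WT, averaged over treatments (x axis), as a point with its 95% interval; the genes are on the y axis in the order of their roles. Piwil1 at −0.57 is the only gene past an adjusted p of 0.05 (orange), and Dnmt1 at 0.24 is the highest.

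Dnmt1, which encodes the maintenance methyltransferase, came nearest to the threshold among the other genes. In vehicle its levels were 202 (T66), 276 (T71), 321 (T79) and 207 CPM (T81) in WT, and 298 (T1), 372 (T90) and 357 CPM (T110) in KO. Over all treatments, WT animals ranged from 202 to 347 CPM with a median of 282, and KO animals from 298 to 372 CPM with a median of 333. T66 and T81 were the lowest of all animals, while WT animals T79, T75, T78 and T74, at 321 to 347 CPM, lay within the KO range. The log2 difference averaged over treatments was 0.24 (SE 0.0842, edgeR adjusted p 0.0663), and that in vehicle was 0.44 (SE 0.146, adjusted p 0.0997). The averaged difference passed without WT vehicle animal T79 (0.29, adjusted p 0.017) or without WT stigmasterol animal T78 (0.27, adjusted p 0.0455). That in vehicle passed without T79 (0.58, adjusted p 0.0235). Without T81 they were 0.2 (adjusted p 0.117) and 0.35 (adjusted p 0.272). Without the libraries with Cdh16 the averaged difference was 0.31 (adjusted p 0.423). Its partner gene Uhrf1 differed by 0.02 (95% interval −0.09 to 0.14) and the de novo methyltransferase genes Dnmt3a and Dnmt3b by −0.06 (−0.17 to 0.05) and −0.02 (−0.15 to 0.12). Dnmt3l had −0.13 (−0.55 to 0.29) and Morc1 0.01 (−0.2 to 0.23).

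The 3 TET genes had negative values and none was called. Tet2 was at 42.7 ± 6.48 CPM in WT and 36.9 ± 3.97 CPM in KO (log2 difference −0.21, SE 0.0807, edgeR adjusted p 0.0933), and it passed without KO stigmasterol animal T93 (−0.26, adjusted p 0.0453). Tet1 had −0.21 (adjusted p 0.296) and Tet3 −0.1 (adjusted p 0.137). With the meiotic entry score as a covariate the Tet2 difference was −0.11 (adjusted p 0.122).

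Across the 21 libraries, the levels of 16 of these genes correlated with those of genes of meiotic entry. The measure was a meiotic entry score, the mean log2 CPM of 21 genes of early meiosis (such as Sycp3, Stra8 and Dmc1), none of which is among the 32. The score ran from 4.05 in WT vehicle animal T81 to 6.41 in WT stigmasterol animal T98. It was 6, 5.53 and 4.72 in the other WT vehicle animals T66, T71 and T79, and 6.22, 5.63 and 5.28 in the KO vehicle animals T1, T90 and T110. Replicates of a group thus spanned much of the whole range. The 16 genes correlated with the score (permutation test, Benjamini-Hochberg adjustment over the 20233 genes tested outside the score), 12 positively and 4 negatively. In all genes tested 34.6% did, 17.7% positively and 16.9% negatively, so the share of negative genes is near the background. Within WT 9 of the 32 passed (22.2% of all genes), within KO 6 (14.2%), without the libraries with Cdh16 8 (17.3%) and within those 9 libraries 9 (13.2%), and each of these was among the 16. As deviations from group means 17 passed (32% of all genes), the 16 and Dnmt3l. Dnmt3l had r = 0.73 there (permutation adjusted p 0.0145) and r = 0.44 without that step (permutation adjusted p 0.11). The median Pearson r was 0.22 for the 32 genes and −0.02 for all.

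**Figure D3:**
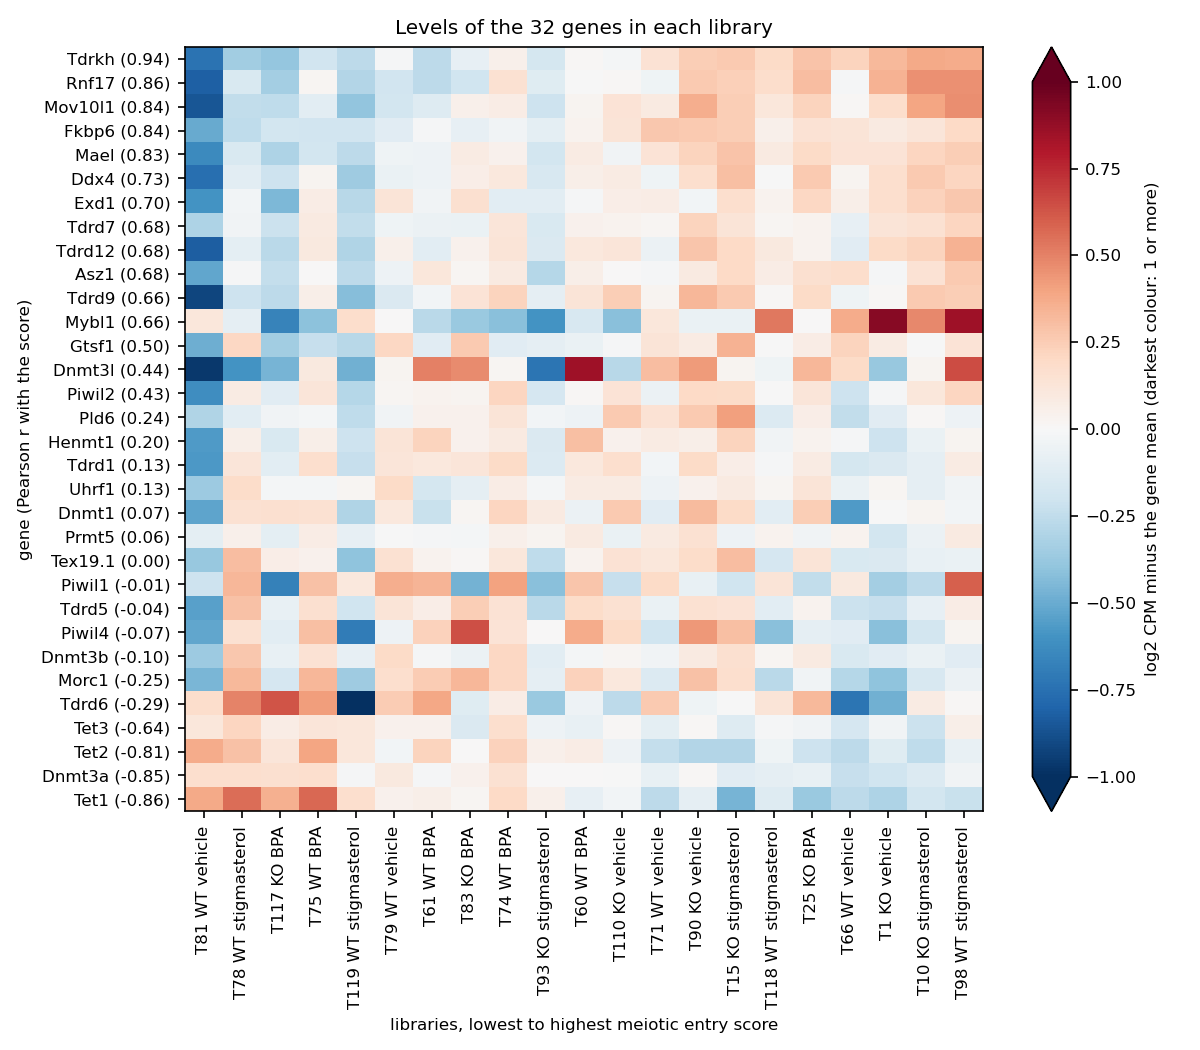
Level of each gene in each library as log2 CPM minus the gene's mean (colour scale, ±1), with libraries ordered along the x axis from the lowest to the highest meiotic entry score and genes along the y axis by their Pearson r with it. T81, at the left, is low for most genes, while Tet1, Tet2 and Dnmt3a at the bottom run from high to low.

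Tdrkh, which encodes the mitochondrial Tudor protein that presents PIWI proteins for trimming of piRNAs, followed the score most closely. In WT its levels were 76.9 (T66), 72.9 (T71), 65.3 (T79) and 39.5 CPM (T81) with vehicle, 66.5 (T60), 57.7 (T75), 54.9 (T61) and 68.3 CPM (T74) with BPA, and 51.8 (T78), 85.2 (T98), 75.3 (T118) and 55.1 CPM (T119) with stigmasterol. In KO they were 82.4, 78.3 and 65.2 CPM in vehicle (T1, T90, T110), 80.2, 62.3 and 50.4 CPM in BPA (T25, T83, T117) and 85.7, 79.2 and 58.3 CPM in stigmasterol (T10, T15, T93). Each group held higher and lower animals, and the groups overlapped. Pearson r with the score was 0.94 and Spearman rho 0.94 (permutation p 1e-05, the smallest that 100000 permutations can give, and adjusted p 0.000131). It was 0.92 within WT and 0.96 within KO, and 0.94 without the 2 libraries farthest from the median score, T98 and T81.

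The other genes that rose with the score were mostly of piRNA biogenesis. Rnf17, which encodes a Tudor protein of germ granules, had r = 0.86, Mov10l1 and Fkbp6 had 0.84 each, Mael 0.83 and Ddx4 0.73, and Exd1, whose protein is a partner of TDRD12, had 0.70. Tdrd7, Tdrd12 and Asz1 had r = 0.68, and Tdrd9 and Mybl1 0.66. Without T98 and T81 these r were 0.54 to 0.83. Permutation adjusted p over all genes was 0.000131 for Rnf17, Mov10l1, Fkbp6 and Mael and at most 0.0048 for the others. Within a genotype fewer passed. Rnf17 passed in both, Mov10l1, Fkbp6, Mael and Asz1 in WT only, and Tdrd7 in KO only. Ddx4, Exd1, Tdrd9 and Tdrd12 passed in neither. Mov10l1 ranged from 79.2 CPM in T81 to 198 CPM in T98, and Mael from 98.5 CPM in T81 to 187 CPM in T15.

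Mybl1, the gene of A-MYB, had a different shape. Its level was 60.2 CPM in T98 and 62.8 CPM in KO vehicle animal T1, 48.1 CPM in WT stigmasterol animal T118 and 46.7 CPM in KO stigmasterol animal T10, all with scores of 5.84 or more. The other animals with such scores had less, with 43.3 CPM in WT vehicle animal T66 and 33.5 CPM in KO BPA animal T25. T25 lay within the range of animals at low scores. Below a score of 5.5 Mybl1 lay between 21.1 CPM (T117) and 37.8 CPM (T119), with 36.1 CPM in T81. It passed within KO (r = 0.89, exact permutation test, adjusted p 0.0173) and not within WT (r = 0.68, permutation adjusted p 0.0604), and the difference between genotypes was not tested.

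The 4 genes that fell as the score rose were Tet1 (r = −0.86), Dnmt3a (−0.85), Tet2 (−0.81) and Tet3 (−0.64), with permutation adjusted p of 0.000131, 0.000131, 0.000214 and 0.00902. Tet1 was at 30.5 CPM in WT BPA animal T75, 30.1 CPM in WT stigmasterol animal T78 and 26.6 CPM in T81, and at 14.8 to 18 CPM in KO animals T15, T25, T1 and T10. Dnmt3a ranged only from 227 CPM (T66) to 299 CPM (T78 and T81), a narrow span. Within WT, r was −0.84 for Tet1 and −0.78 for Dnmt3a, and within KO it was −0.83 and −0.93, each past an adjusted p of 0.05. Tet2 passed within WT (r = −0.8, permutation adjusted p 0.0173) and not within KO (r = −0.81, exact permutation test, adjusted p 0.0644). Tet3 passed in neither, with r = −0.65 in WT (permutation adjusted p 0.084) and −0.47 in KO (exact permutation test, adjusted p 0.394).

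Piwil1 (r = −0.01), Tdrd1 (0.13), Dnmt1 (0.07), Uhrf1 (0.13), Prmt5 (0.06, the arginine methyltransferase of PIWI proteins) and Tex19.1 (0.00) did not follow the score. Piwil1 had r = 0.34 within WT (permutation adjusted p 0.48) and 0.69 within KO (exact permutation test, adjusted p 0.134). Gtsf1, a zinc finger partner of PIWI proteins, had r = 0.50 and did not pass (permutation adjusted p 0.0548). Of the 10 genes with CACGTG before a start, 6 correlated with the score (5 positively, and Dnmt3a negatively), and of the 17 genes with a promoter entry and no CACGTG there, 8 did (5 positively and 3 negatively). These counts were not tested.

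**Figure D4:**
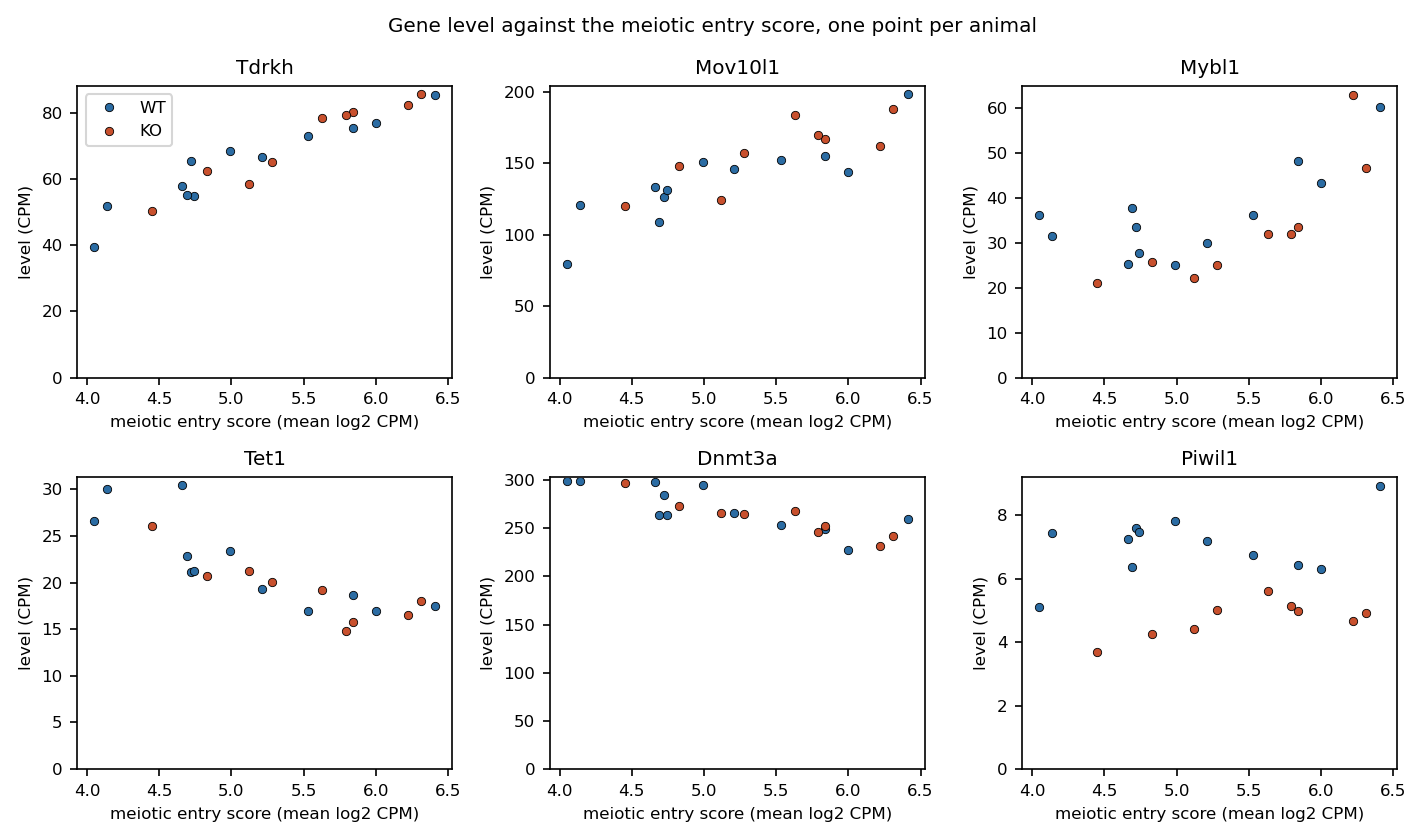
Level in CPM (y axis, from 0) against the meiotic entry score in mean log2 CPM (x axis) for 6 genes, with a point per animal (WT blue, KO orange). Tdrkh and Mov10l1 rise with the score, Mybl1 is highest in T1 and T98, Tet1 and Dnmt3a fall, and Piwil1 splits by genotype with r = −0.01.

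T81 was the lowest library for many of these genes, and the share of all genes that were lowest there was not counted. It had the lowest level of the 21 libraries for 21 of the 32 genes, and for 17 of the 23 piRNA genes and regulators, as well as the lowest score. It belongs to WT vehicle, the reference of both treatments in WT, of KO in vehicle and of both interactions, and had Cdh16 at 17.6 CPM. Without it the values in those comparisons moved, as given beside them.

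In vehicle, KO against WT gave no call among the 32 genes (lowest edgeR adjusted p 0.0997), where 2.92% of all genes passed. At an unadjusted p under 0.05 there were 7 of the 32 (20.9% of all genes), of which 6 were higher (9.66% of all genes). The log2 difference was above 0 for 26 genes with a median of 0.16, beside 52.4% and 0.01 for all genes. Without T81 it was above 0 for 22 genes with a median of 0.05. Tdrd7, Tdrd12, Rnf17, Ddx4 and Mov10l1 were higher in all 3 KO vehicle animals than in all 4 WT vehicle animals, and 8.25% of all genes were. For Rnf17 the levels were 82.5, 80.8, 72.9 and 47.2 CPM in WT (T66, T71, T79, T81) and 106, 100 and 83.8 CPM in KO (T1, T90, T110), a log2 difference of 0.45 (SE 0.203, edgeR adjusted p 0.22). Without T81 it was 0.28 (adjusted p 0.491), and those of Tdrd7, Tdrd12, Ddx4 and Mov10l1 were 0.15, 0.22, 0.15 and 0.24. The meiotic entry list had a median of 0.57 here with 20 of 21 genes above 0 and none called. Sertoli genes had a median of −0.44 with 1 of 16 above 0 and 5 called lower. The part of either in these values was not tested.

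BPA gave no call among these genes in either genotype. In WT, 28 of the 32 log2 differences were above 0 with a median of 0.17, beside 52.2% and 0.01 for all genes. In the same comparison the median was −0.32 for the meiotic entry genes (1 of 21 above 0), −0.32 for Sertoli genes (1 of 16), 0.64 for peritubular myoid genes (6 of 6) and 0.22 for undifferentiated spermatogonia (14 of 16), with none called, and their part was not tested. None of the 32 passed (lowest edgeR adjusted p 0.189, lowest DESeq2 adjusted p 0.131), as none of all 20254 genes passed in edgeR (0%). The count over all genes depended on the animals and the method. With an animal left out it was 0 to 1321 in edgeR, and DESeq2 called more genes, as given in the closing section. At an unadjusted p under 0.05 in edgeR there were 5 of the 32, all higher: Morc1, Tdrd1, Piwil2, Piwil4 and Tdrd5. Of all genes, 18.8% had such a p and 8.27% were higher with it. Morc1, which encodes a germ cell ATPase needed for methylation of late transposons, was at 25.6, 28.4, 35.2 and 22.8 CPM in vehicle (T66, T71, T79, T81) and at 36.7, 39.3, 37.2 and 36 CPM in BPA (T60, T75, T61, T74). All 4 BPA animals lay above all 4 vehicle animals, as for 3.69% of all genes, with a log2 difference of 0.41 (SE 0.166, edgeR adjusted p 0.189). Piwil4 was at 12.7, 12, 13.3 and 9.61 CPM in vehicle and at 17.8, 16.9, 16.1 and 15.1 CPM in BPA. The groups did not overlap, and the log2 difference was 0.47 (SE 0.207, edgeR adjusted p 0.231). Without T81 it was 0.37 for Piwil4 and 0.32 for Morc1 (adjusted p 0.403 and 0.364), and 24 of the 32 genes were above 0 with a median of 0.08.

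Mybl1 went the other way under BPA in WT. It was at 43.3, 36.1, 33.6 and 36.1 CPM in vehicle and at 29.9, 25.2, 27.7 and 25 CPM in BPA, with no overlap, as for 4.4% of all genes in the lower direction. The log2 difference was −0.47 (SE 0.26, edgeR adjusted p 0.343) and −0.49 without T81 (adjusted p 0.391). In KO it was at 62.8, 31.9 and 25 CPM in vehicle (T1, T90, T110) and at 33.5, 25.8 and 21.1 CPM in BPA (T25, T83, T117), which overlapped (log2 difference −0.57, SE 0.3, adjusted p 0.896). T1 was the high animal among them. Without T1 the difference in KO was −0.08, and without the libraries with Cdh16, which leaves 1 animal in each of these KO groups, it was 0.07 (adjusted p 1 for both).

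Also in KO, BPA gave 10 of 32 log2 differences above 0 with a median of −0.05 (all genes 50.3% and 0), a lowest adjusted p of 0.896, and none of the 32 at an unadjusted p under 0.05 (4.31% of all genes). Of all genes, 0.0148% were called. Tdrd12 was lower in all 3 BPA animals (22.9, 23 and 18.5 CPM) than in vehicle (25.5, 27.1 and 24.3 CPM), as for 5.35% of all genes, at a log2 difference of −0.25 (SE 0.183, edgeR adjusted p 0.896). The meiotic entry list had a median log2 difference of −0.58 here with 0 of 21 genes above 0, none called, and its part in these values was not tested.

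Stigmasterol gave no call either. In WT, 27 of the 32 were above 0 with a median of 0.1 (all genes 51.1% and 0), the highest being Rnf17 at 0.31 (95% interval −0.09 to 0.71), the lowest edgeR adjusted p was 0.687 and none had an unadjusted p under 0.05 (8.26% of all genes). Without T81, 18 were above 0 and the median was 0.01, Rnf17 was at 0.15 (adjusted p 0.9), and Tet1 and Tet2 were higher than it at 0.28 and 0.25. The meiotic entry list had a median of 0.37 in this comparison with 20 of 21 genes above 0, none called, and its part in these values was not tested. In KO, 9 were above 0 with a median of −0.05 (all genes 51.8% and 0.01) the lowest adjusted p was 1 and none had an unadjusted p under 0.05 (3.85% of all genes). Of all genes, 0.00494% were called in WT and 0% in KO. The stigmasterol KO animals had Tet3 at 223, 236 and 250 CPM (T10, T15, T93), below the vehicle KO animals at 252, 261 and 260 CPM, as for 4.96% of all genes (log2 difference −0.12, SE 0.0816, edgeR adjusted p 1). The 95% intervals of the 4 treatment comparisons reached as far as −1.2 and 1.24.

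**Figure D5:**
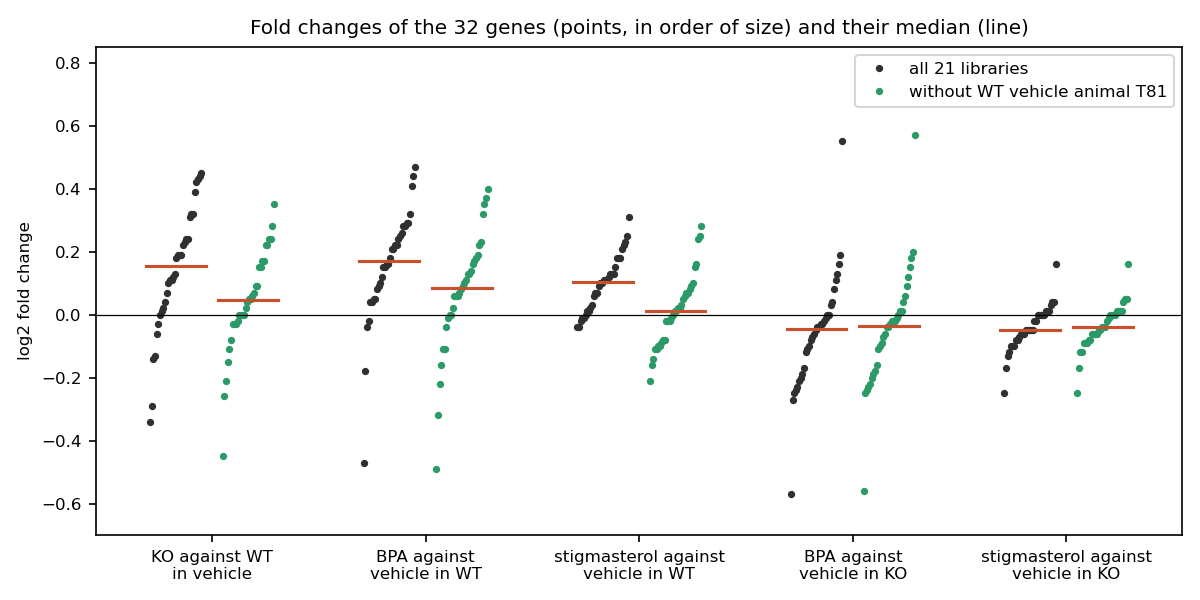
Log2 fold changes of the 32 genes (y axis; points in order of size) in the 5 comparisons named on the x axis, with all 21 libraries (black) and without WT vehicle animal T81 (green), and their median as a line. Without T81 the median moved from 0.16 to 0.05 in KO against WT in vehicle, from 0.17 to 0.08 for BPA in WT and from 0.1 to 0.01 for stigmasterol in WT.

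The test of the difference between genotypes in the response to treatment gave no call among these genes. For BPA, 3 of the 32 interaction terms were above 0 with a median of −0.21 (all genes 49.2% and 0; lowest edgeR adjusted p 0.536), and without T81 7 were, with a median of −0.13. For stigmasterol, 4 were above 0 with a median of −0.13 (all genes 50.7% and 0; lowest adjusted p 0.523), and without T81 14 were, with a median of −0.04. Of all genes, 0.0148% and 0.00987% were called. At an unadjusted p under 0.05 there were 3 for BPA (Piwil1, Tdrd7 and Tdrd12; 8.83% of all genes) and 1 for stigmasterol (Tet3; 9.16% of all genes). These comparisons and those within WT share the WT vehicle animals, so their values are not independent. In the test of any difference among the 6 groups, Piwil1 alone passed (edgeR adjusted p 0.0059), against 6.34% of all genes.

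Other genes of the pathways gave few calls. Of 13 other piRNA genes, all tested, 1 was higher in KO averaged over treatments and 12 had positive values. It was Pnldc1, which encodes the exonuclease that trims piRNA 3′ ends, at 36.3 ± 3.94 CPM in WT (SD, n = 12) and 41.7 ± 4.01 CPM in KO (SD, n = 9), a log2 difference of 0.2 (SE 0.0626, edgeR adjusted p 0.0364). Of 19 other DNA methylation genes tested, 1 was higher, Mbd4, which encodes a glycosylase that removes thymine from deaminated CpG sites. It was at 27 ± 2.69 CPM in WT and 31.6 ± 2.18 CPM in KO (log2 difference 0.22, SE 0.0599, edgeR adjusted p 0.0185). Each is 1 call in its list beside 6.85% of all genes called higher. Neither list had a call in vehicle alone or in any treatment comparison.

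In the authors' deposited table, which compares each treatment with vehicle within a genotype, no gene of the 32 had an adjusted p under 0.05. The lowest adjusted p there was 0.16 for BPA in WT, 0.88 for stigmasterol in WT, and 1 for both treatments in KO. The log2 fold changes of these genes in the authors' deposited table ran from −0.47 (Mybl1) to 0.46 (Piwil4) for BPA in WT, and from −0.57 (Mybl1) to 0.56 (Tdrd6) for BPA in KO.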

How the data were processed

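Testis RNA of 21 mice was sequenced after preparation with a TruSeq kit, per the labels' protocols. The authors deposited raw read counts per gene, which were the input of each test here. Per the file headers, the table also holds the authors' normalized signal, that signal per kb of gene length, and their log2 fold changes for 4 comparisons, each with its p-value before and after adjustment. CASAVA 1.8.2, Bowtie, TopHat2 2.0.10, Bowtie2 2.1.0 and mm10 are named per the submitters' processing notes. Not given in the sources used here were the counter, the annotation and the handling of multiply mapped reads.

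The 32 genes and the marker and pathway lists were chosen with earlier results of these data known. Each of the 32 genes is named, with pathway genes that were called between genotypes. Counts were fitted with edgeR 4.0.16 (R 4.3.3): TMM, filterByExpr (minimum count 10, minimum total count 15), quasi-likelihood model with a mean for each of the 6 groups and 15 residual degrees of freedom, two-sided tests, and Benjamini-Hochberg adjustment over the 20254 genes of each comparison at 0.05. SE and 95% intervals of log2 fold changes come from the F statistic. TMM factors enter the CPM. Correlations used log2 CPM (prior count 2) with 100000 permutations, or all permutations for 9 libraries. They were adjusted over all genes, although the plan had been to adjust over the 32. Each p-value rests on the variation between animals, as each library is 1 animal. In edgeR that variation was estimated over all 6 groups and moderated across genes. The permutations ignored the groups, except those of deviations from group means. The fit was run on simulated data with equal spread for all genes and planted changes larger than those of the 32 genes between genotypes. Recovery of smaller changes was not tested. Alternatives were median-of-ratios size factors, DESeq2 1.42.0, limma-voom (limma 3.58.1), no filter, the meiotic entry score as covariate, leaving out the 9 Cdh16 libraries, only the groups compared, and each animal left out. Exon lengths are from GENCODE and promoters from RefSeq.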

Additional observations from a re-analysis of the deposited data

Results flagged for a closer look

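Within the WT groups of 4 animals, 96 sets of levels were examined for an animal far from the other 3, and 6 were found (6.25%), close to the 1 in 20 that chance gives. Groups of 3 KO animals cannot be examined this way. In WT vehicle, T81 was far below the others for Ddx4 (129.0 CPM, others 207 to 221), Gtsf1 (12.6 CPM, others 19.4 to 20.7) and Exd1 (10.1 CPM, others 15.9 to 16.7). In the same group T66 had Tdrd6 at 0.439 CPM, with the others at 0.825 to 0.877 CPM. In WT BPA, T61 had Tdrd12 at 20.8 CPM, with the others at 23.9 to 24.4 CPM, and T74 had Tex19.1 at 102.0 CPM, with the others at 96.6 to 97 CPM.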

How the results depend on the processing

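No paired analysis was possible because animal numbers are not shared between groups. The number of the 32 genes called averaged over treatments was 1 to 2 and that in vehicle 0 to 1 with an animal left out, and without the libraries with Cdh16 it was 0 both averaged over treatments and among the 6 groups. In the other settings no count of the 32 genes called moved. Of 7136 values of these genes under alternatives, 309 changed sign, and none of these where the main value was called. Of these, 8 in 6 genes had a main log2 value of 0.2 or more in size, all not called: Mybl1 for BPA in KO (−0.57 to 0.07), Rnf17 (−0.27 to 0.03) and Tdrkh (−0.23 to 0.03) for BPA in KO and Ddx4 for its interaction (−0.3 to 0.04) without the libraries with Cdh16, Tdrkh (0.02) and Mov10l1 (−0.2 to 0.02) for BPA in KO with the covariate, Dnmt3l for the BPA interaction without T90 (−0.25 to 0.07) and Mybl1 for stigmasterol in KO without T1 (−0.25 to 0.23). The number correlated with the meiotic entry score was 17 as deviations from group means, 9 within WT, 6 within KO, 8 without the libraries with Cdh16 and 9 within them (the last added after the data were seen). Those subsets hold 9 or 12 libraries.

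Over all genes, DESeq2 called 3356 among the 6 groups, 1413 for KO in vehicle, 1025 and 91 for BPA and stigmasterol in WT, 7 and 1 in KO, and 8 and 136 for the interactions. The covariate gave 2940 among the 6 groups, 921 in vehicle, 1137 for BPA in WT, 3 for stigmasterol in KO and 57 for its interaction. Without the libraries with Cdh16 there were 87 among the 6 groups, 257 averaged, 56 in vehicle, 0 for stigmasterol in WT and its interaction, and 7 and 2 for BPA and stigmasterol in KO. Fits of only the groups compared gave 185 in vehicle, 0 for stigmasterol in WT and its interaction, and 1 for each treatment in KO. Without a filter, stigmasterol in WT and its interaction gave 0. With an animal left out the ranges were 793 to 1794 among the 6 groups, 242 to 986 in vehicle, 0 to 1321 for BPA and 0 to 2 for stigmasterol in WT, 3 to 12 and 0 to 1 in KO, and 2 to 5 and 0 to 11 for the interactions. The cause of these shifts was not tested. With median-of-ratios size factors the median log2 fold change of all genes, KO averaged over treatments, was 0.009. Depth limits Tdrd6 and Dnmt3l most.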
